A study of Drosophila melanogaster with 3 samples.

Results

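The peaks described here are the Pointed-eGFP peaks that all 3 biological replicates of a ChIP-seq experiment ranked among their strongest. They were chosen from the authors' optimal list on build dm6, which holds 3646 peaks derived from the replicates by the irreproducible discovery rate (IDR) procedure. For each replicate, the 3646 peaks with the highest signal in its own relaxed list were taken as its top list, and an optimal peak was called shared when a peak of every top list overlapped it by at least 1 bp. This held for 2078 of the 3646 optimal peaks, or 57.0% (95% Clopper-Pearson interval 55.4 to 58.6). The other 1568 optimal peaks serve as the comparison. Signal and replicate rank chose the members, so both are given as a description and were not tested.

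The animals were whole Drosophila melanogaster embryos of mixed sex, 0 to 24 h old, of the strain pnt-MiMIC-GFP. In this strain an eGFP exon placed in an intron of pnt gives a Pointed-eGFP fusion protein from the gene's own locus, and the antibody recognised GFP, although the antibody field names pnt. All libraries belong to 1 group of this 1 line, with chromatin sonicated to 200 to 800 bp and no second genotype or treatment. The control used for peak calling was not analysed here, the read depth is unknown, and in whole embryos binding in fewer cells and weaker binding per cell cannot be told apart.

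Pointed belongs to the ETS family of transcription factors and activates genes downstream of the EGF receptor, Ras and MAP kinase. ETS domains recognise DNA around a GGAA core. The ETS repressor Yan, made by aop, competes with Pointed for such sites, and phosphorylation by MAP kinase relieves that repression in many tissues, among them the embryonic ventral ectoderm and the tracheal system.

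The following stretches reach 50 bases to each side of the summits of the strongest shared TSS-proximal, intron and intergenic peaks and of the strongest shared peaks in pnt and in aos, and are shown to let the sequence under strong shared peaks be read. Stretches that touch an annotated UTR, and stretches on arms other than X, 2L, 3L, 3R and 4, were passed over, so a class may hold a stronger peak. A summit was TSS-proximal when some transcription start site (TSS) of the annotation lay no more than 500 bp away. They are the plus strand of dm6, from the RefSeq Release 6 genome, at 3L:19590572-19590672 (nearest CG14100), 2L:481046-481146 (nearest cbt, inside an intron of ush), 3R:16222431-16222531 (nearest tara), 3R:23326469-23326569 (an intron of pnt) and 3L:16480508-16480608 (an intron of aos). Capitals mark matches to any of 10 short patterns on either strand.
CG14100: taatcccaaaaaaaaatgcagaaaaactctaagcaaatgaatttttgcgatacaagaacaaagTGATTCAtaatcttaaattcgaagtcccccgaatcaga
cbt: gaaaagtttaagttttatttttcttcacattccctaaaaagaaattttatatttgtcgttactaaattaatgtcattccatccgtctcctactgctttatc
tara: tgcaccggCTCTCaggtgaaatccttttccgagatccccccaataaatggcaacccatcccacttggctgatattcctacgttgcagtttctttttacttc
pnt: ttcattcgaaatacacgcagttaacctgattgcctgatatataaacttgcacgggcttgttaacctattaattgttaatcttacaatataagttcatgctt
aos: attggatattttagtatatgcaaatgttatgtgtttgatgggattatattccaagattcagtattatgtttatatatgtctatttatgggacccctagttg
The CG14100 stretch holds TGANTCA, the AP-1 pattern, and the tara stretch holds GAGAG, the pattern of GAGA factor, on the minus strand. The other 3 hold none of the 10 patterns. Neither the ETS pattern CCGGAA nor the ETS pattern CAGGAA occurs in these 5 stretches, which says only that these letters are not there.

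The 3 stretches below were chosen after the values were seen, as the strongest shared peaks under the same limits with CCGGAA, with CAGGAA and with TATCGATA inside the stretch (the stronger peaks at Chro and Lk6 hold an ETS pattern within 100 bp of the summit but did not meet these limits): Ptpmeg2 at X:9646064-9646164, Vps33B at 3R:25473241-25473341 and Sfmbt at 2L:13176802-13176902. Their summits lay 189, 199 and 67 bp from the nearest TSS of a protein-coding gene. Capitals mark pattern matches as before.
Ptpmeg2: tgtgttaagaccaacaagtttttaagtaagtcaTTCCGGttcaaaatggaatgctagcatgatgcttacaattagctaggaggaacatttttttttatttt
Vps33B: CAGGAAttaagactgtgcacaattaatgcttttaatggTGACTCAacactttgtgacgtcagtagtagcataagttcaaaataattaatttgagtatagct
Sfmbt: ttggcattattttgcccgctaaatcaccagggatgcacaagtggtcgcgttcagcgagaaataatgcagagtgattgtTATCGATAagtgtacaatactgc
The CCGGAA match at Ptpmeg2, a protein tyrosine phosphatase gene, reads on the minus strand. Vps33B carries CAGGAA at the left edge of the stretch and an AP-1 pattern farther in. Sfmbt, a Polycomb-group gene, carries the DRE, the element bound by the promoter factor Dref.

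The rule works through signal, and the share of peaks it kept rose with the signal of the pooled optimal list. The signal is the authors' value for each peak, on a scale that the sources used here do not state. Its median was 217.6 at shared peaks (quartiles 163 and 318, range 93.2 to 2989) and 112.9 at the others (quartiles 101.2 and 131.1, highest 591.5). With the optimal list divided into 5 equal signal bins, 45 of 730 peaks (6.16%) were shared in the weakest bin, 182 of 729 in the next, and 63.0%, 91.5% and 99.5% in the other 3. All of the strongest 100 optimal peaks were shared, 497 of the strongest 500 and 982 of the strongest 1000. The first that was not, at Lrch, held pooled rank 138.

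**Figure D1:**
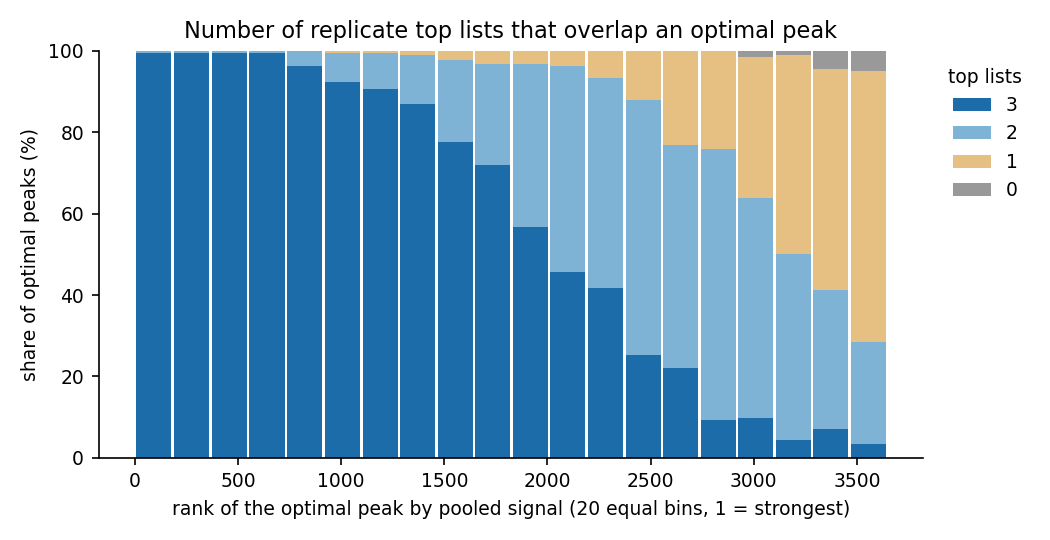
Share of optimal peaks overlapped by 3, 2, 1 or 0 of the replicate top lists (y axis, percent), in 20 equal bins of pooled signal rank (x axis, 1 is the strongest). Nearly all peaks in the leftmost bins are in 3 lists, and in the bins on the right most are in 1 or 2.

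The strongest shared peaks had nearly the same place in every library. The peak at CG14100 (3L:19590433-19590804) ranked 1, 2 and 2 in replicates 1, 2 and 3, with replicate signals of 1244, 994.2 and 763.4. The peak nearest cbt (2L:480877-481289), the gene of the zinc-finger factor Cabut, lies in an intron of ush, a Friend-of-GATA gene, and ranked 3, 1 and 1. Ugalt, a UDP-galactose transporter gene, ranked 2, 3 and 3. All of these stood within the first 3 places of each list.

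Of the next shared peaks near a TSS, the peak at ph-p, a Polycomb-group gene, ranked 4, 4 and 9. The peak at Chro, which encodes the chromatin protein Chromator, ranked 8, 5 and 13, and that at Art3, an arginine methyltransferase gene, ranked 7, 12 and 11. Among introns, the peak of Lk6, a protein kinase that binds MAP kinase, ranked 5, 8 and 4, and that of CG11050 ranked 10, 16 and 6. Replicate 3 placed the intron peak of HmgZ, a high-mobility-group gene, lower than the others did, at 14, 9 and 44. CG9663 ranked 26, 22 and 16. Intergenic shared peaks began at CG13323 (12, 15 and 10) and tara (19, 6 and 15), followed by CycB, the gene of cyclin B, at 34, 29 and 40.

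Replicate 3 most often set the limit. At members the median rank was 1041.5 in replicate 1, 1044.5 in replicate 2 and 1205.5 in replicate 3, and the lowest of the 3 places was the one in replicate 3 at 1068 members (51.4%), against 458 and 559 for replicates 1 and 2. Across the 2078 members Spearman's rho of replicate signal was 0.837 for replicates 1 and 2, 0.692 for 1 and 3 and 0.632 for 2 and 3. These coefficients describe peaks selected for being high in all 3 lists, and carry no test. The top lists overlapped 3157, 2973 and 2677 of the optimal peaks.

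The threshold itself separated near neighbours. The last members by their lowest place were CG7220, which replicate 3 ranked 3646, CG2211, which replicate 1 ranked 3644, and P58IPK, which replicate 2 ranked 3641. Tsp29Fb (3639) and CG18467 (3637) followed. Just outside stood a 3′ UTR peak inside the spans of both the Hox gene Antp and CG46458, ranked 2745, 3168 and 3647. Then came Esyt2 (lowest place 3654), RhoU (3657), CG33298 (3660) and Gpdh1 (3662). Of the 1568 others, 851 (54.3%) had a peak within the first 7292 places of every replicate, 479 had a lower one in at least 1 replicate, and 238 had no listed peak at all in at least 1 replicate.

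The strongest peaks that were not shared were each absent from the top list of 1 replicate. The peak at Lrch, a leucine-rich repeat gene, ranked 386 in replicate 1 and 27 in replicate 3, and no listed peak of replicate 2 overlapped it. Another optimal peak beside it (2L:17378997-17379205) was shared, at 444, 274 and 27, so the same replicate 3 peak matched both. Cals, the calsyntenin gene, ranked 191 and 306 with none in replicate 2, and CG11180, CG7810 and Stt3B, an oligosaccharyltransferase gene, were likewise without one there. The peaks of Sesn (334, 333 and 3671), Pak3 (336, 264 and 3717), sick (831, 462 and 4166) and FoxL1 (951, 464 and 3992) fell outside the top list of replicate 3. MESR3 alone of these 10 was missed by replicate 1, where it ranked 4726, while replicate 3 ranked it 174. A stronger optimal peak nearest the same gene was shared at Sesn (137, 116 and 49), Pak3 (167, 53 and 501) and sick (349, 667 and 118).

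At the other end, 5 shared peaks had pooled ranks of 3532 or lower in the list: Uba3, AP-1gamma, a peak in shn, dlp and CG9921. CG9921, with the lowest pooled signal of all, 93.2, ranked 321, 298 and 208 in the replicates. These are also the ranks of the stronger optimal peak beside it (X:16332875-16332972, pooled signal 449), so the same replicate peaks matched both. The weak peak in shn likewise has its replicate 3 rank, 427, in common with a stronger peak of shn. In all, 179 members (8.61%) were overlapped by a replicate peak that was also the best match of another optimal peak, and their ranks are then those of a replicate peak held in common. The members rested on 1996 different trios of replicate peaks, and 82 of these trios overlapped 2 or more members.

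Summit positions are bounded by the overlap that the rule requires, and are given as a description. The range of the 3 replicate summits at a member had a median of 43 bp (quartiles 23 and 72), was within 50 bp at 1225 members (59.0%) and exceeded 200 bp at 69 (3.32%). It was 30 bp in the strongest signal bin and 102 bp at the 45 members in the weakest. The 1330 other optimal peaks with a listed peak in every replicate had a median of 62 bp. TSS-proximal, intron and intergenic members had medians of 44, 43 and 38 bp.

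Shared peaks lay near promoters slightly more often than the others. Of the 2078, 1075 summits (51.7%) were TSS-proximal, against 704 of 1568 (44.9%), a difference of 6.83 percentage points (95% Newcombe interval 3.56 to 10.1). Intergenic summits made up 12.2% and 15.8%, a difference of -3.53 points (-5.84 to -1.26). Both intervals exclude 0 also at the level adjusted for the 7 classes, which is the criterion used here. The intron shares, 33.6% and 37.1%, differed by -3.48 points (-6.62 to -0.35), which does not pass that criterion. Coding exons held 5 shared and 5 other summits. For scale, TSS-proximal bases are 13.6% of the 6 arms, intron bases 39.5% and coding bases 13.9%. These intervals, and those below for arms and patterns, cover counting error over peaks and treat each peak as independent. Neighbouring peaks can rest on the same replicate peak, and all peaks come from the same 3 libraries, so the intervals may be too narrow. With replicates 1 and 2 alone deciding, the TSS-proximal difference was -6.92 points (-10.7 to -3.15), the opposite direction, and the intergenic one 3.90.

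**Figure D2:**
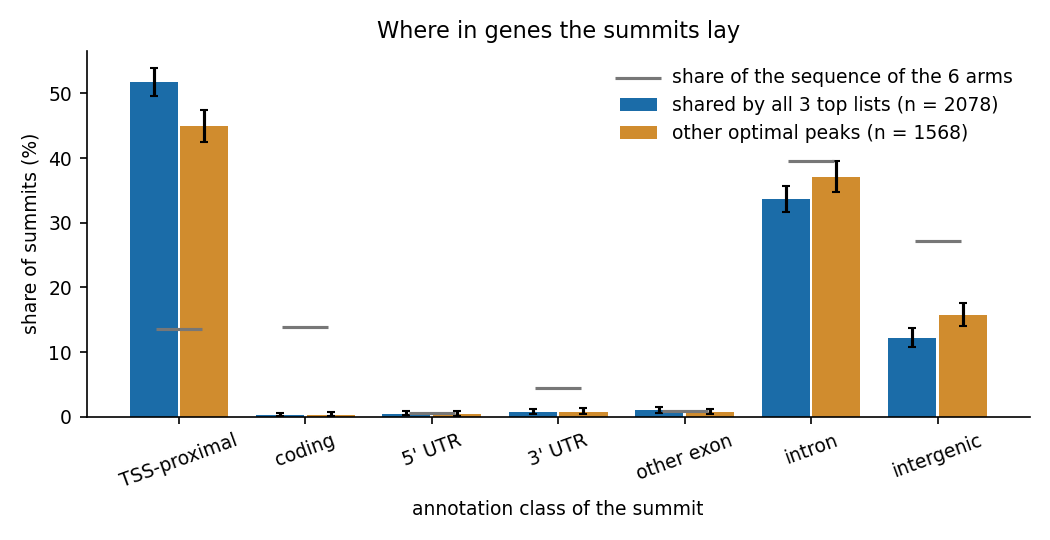
Share of summits in each annotation class (y axis, percent) for shared and other optimal peaks, with 95% Clopper-Pearson intervals as error bars and grey marks for the share of sequence. TSS-proximal summits are 51.7% of shared and 44.9% of other peaks, and the coding class is near 0 in both.

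The direction depended on which replicates held the peak. Among the 670 peaks in the top lists of replicates 1 and 2 but not 3, 32.7% were TSS-proximal, and the shared peaks exceeded them by 19.0 points (14.8 to 23.1). Among the 266 peaks of replicates 1 and 3 but not 2, 71.1% were, so the shared peaks stood lower (difference -19.3 points, -24.9 to -13.2). The 91 peaks of replicates 2 and 3 but not 1 had 45.1%, and this difference of 6.68 points (-3.76 to 16.7) did not pass. The top lists themselves had 49.3%, 40.6% and 56.4% TSS-proximal summits in replicates 1, 2 and 3. Of the 204 optimal peaks with no listed peak in replicate 2, 148 (72.5%) were TSS-proximal, against 10 of 20 such peaks in replicate 1 and 10 of 25 in replicate 3. What sets replicates 2 and 3 apart in this way was not tested.

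**Figure D3:**
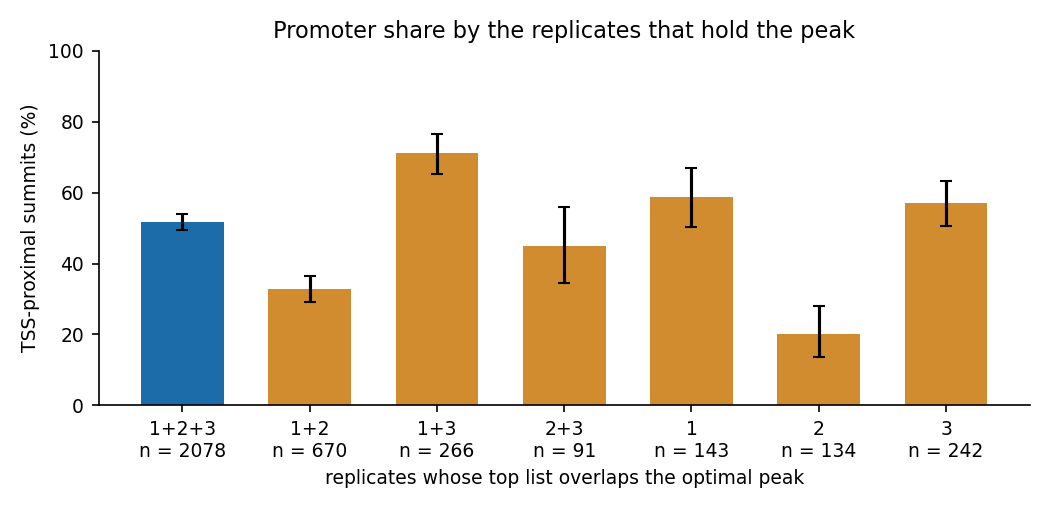
Share of TSS-proximal summits (y axis, percent, with 95% Clopper-Pearson intervals) by the replicates whose top list overlaps the peak (x axis, with the number of peaks). Shared peaks, at 51.7%, sit between the peaks missed only by replicate 3, at 32.7%, and those missed only by replicate 2, at 71.1%.

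The difference was not even over signal either. From the weakest to the strongest signal bin, shared minus other TSS-proximal shares were 12.3, 3.56, -0.370, -10.2 and 55.4 points, and the last rests on 4 other peaks. Averaged over all 5 bins the difference was 12.2 points (4.71 to 19.6), which passes the criterion, and over the 4 weaker bins, an average added after seeing the data, it was 1.35 points (-4.32 to 7.01), which does not. Within the TSS-proximal class, shared summits lay farther from the TSS: 37.0% were within 100 bp of one, against 52.1% of the others (difference -15.1 points, interval -19.7 to -10.4). The median position was -112 bp and -77 bp, and 82.3% and 80.7% of summits lay upstream. Over all peaks, 398 of 2078 shared and 367 of 1568 other summits were within 100 bp of a TSS, a smaller share of the shared. Both within-100-bp comparisons were added after the first results were seen. With only replicates 1 and 3 deciding, the difference within the TSS-proximal class was -2.06 points (-7.15 to 2.99).

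The X chromosome held more of the shared peaks. It carried 435 of them (20.9%) and 267 of the others (17.0%), a difference of 3.91 points (1.33 to 6.44) that passes the criterion adjusted for 6 arms. X is 17.6% of the sequence. None of the other 5 arms differed by this criterion, and chromosome 4 held 7 shared and 5 other peaks. The 5 genes with the most shared summits are all on X and hold 49 of them, and without their peaks the difference was 2.85 points (0.325 to 5.34), no longer past the adjusted level. With only replicates 1 and 3 deciding it was 1.99 points (-0.691 to 4.59). Replicate 3's own top list had 17.0% of its peaks on X, and replicates 1 and 2 had 19.9% each.

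None of the 10 sequence patterns differed between shared and other peaks by the adjusted criterion. Within 100 bp of the summit, CCGGAA occurred in 64 shared peaks (3.08%) and 61 others (3.89%), with a difference of -0.81 points (-2.07 to 0.38). CAGGAA occurred in 6.21% and 6.06%, a difference of 0.149 points (-1.46 to 1.70). Of all tiles of that length on the 6 arms, 6.11% and 9.97% hold these ETS patterns, more than the peaks do. AAGGCC, the first ETS pattern reversed as a control of like composition, was at 3.22% and 3.89%, with 6.18% of tiles. Either of these ETS patterns was present in 186 shared (8.95%) and 154 other peaks (9.82%), and in 12 of the 100 strongest. Other sequences with the GGAA core were not counted. The median GC content of the windows was 35.8% at shared and 37.3% at other peaks. Overlaps between patterns were not removed.

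The patterns of other factors were given the same comparison. GAGAG was in 24.4% of shared and 23.6% of other peaks (21.5% of tiles), TGANTCA in 4.96% and 5.17% (3.93%), CAGCTG, an E-box, in 8.71% and 10.1% (8.39%), and TGGGAA, the Su(H) core, in 10.9% and 10.8% (11.7%). CAGGTAG, bound by Zelda, was in 0.866% and 0.957% (1.09%), and GGTCACACT, from promoter motif 1, in 1.11% and 1.66% (0.201%). The DRE pattern TATCGATA was in 52 shared (2.50%) and 65 other peaks (4.15%), with 0.564% of tiles. Its difference of -1.64 points (-2.89 to -0.478) missed the level adjusted for the 10 patterns, although the 95% interval excludes 0.

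Among TSS-proximal peaks 4.74% of shared and 8.66% of others held it, a difference of -3.92 points (-6.49 to -1.57) that passes the adjusted level, and 51 of the 52 shared matches were TSS-proximal. With only replicates 1 and 3 deciding, the difference over all peaks was 1.17 points (-0.036 to 2.27). With only replicates 1 and 2 it was -3.87 (-5.70 to -2.35).

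**Figure D4:**
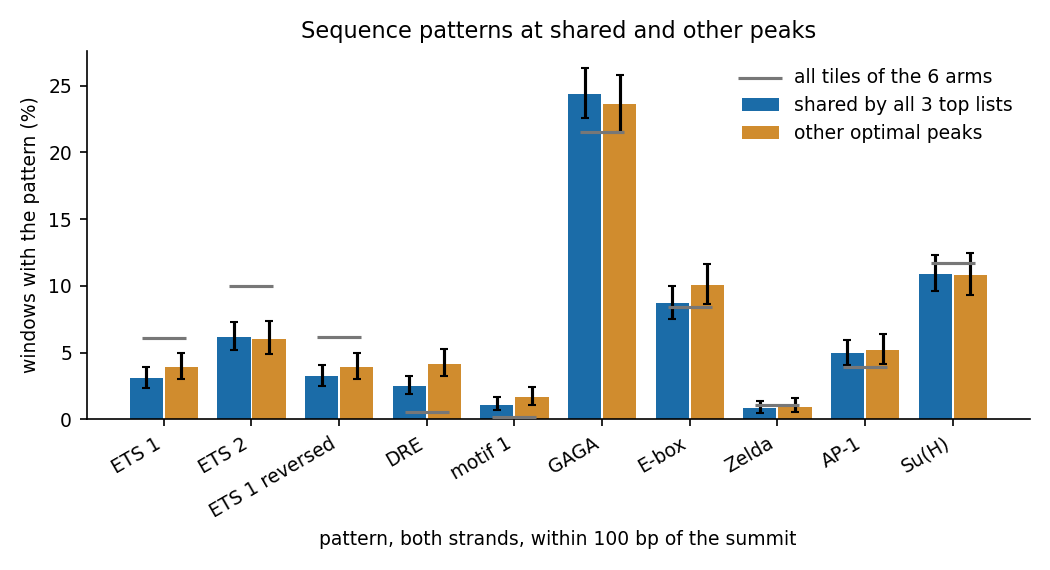
Share of summit windows, 100 bp to each side, that hold each pattern (y axis, percent, with 95% Clopper-Pearson intervals) for shared and other optimal peaks, with grey marks for all tiles of the 6 arms. The bars of each pattern are close, and the DRE, at 2.50% and 4.15%, has the widest relative gap of the patterns above 1% of windows.

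Genes near shared peaks were counted when a shared summit lay in their span or within 2 kb. Of 13945 protein-coding genes, 4103 (29.4%) had an optimal summit and 2625 (18.8%) a shared one, so 64.0% of the genes with an optimal peak had a shared one. Of the 2974 genes with 1 optimal summit, 1659 (55.8%) had a shared one, as had 966 of the 1129 (85.6%) with more. All 71 genes with at least 5 optimal summits had a shared one. The median span was 3745 bp for genes with a shared peak, 2958.5 bp for those with other peaks only and 2166 bp over all genes.

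Some loci held many shared peaks. The most lay at kirre, a cell adhesion gene of myoblast fusion, with 11 of its 15 optimal peaks shared, and at Raf, the MAP kinase kinase kinase, with 11 of 13. CG1677 had 9 of 15, and CHES-1-like, a forkhead factor, and Hr4, an ecdysone-regulated nuclear receptor, had 9 of 11 each. Next came shn (6 of 14), a zinc-finger factor of Dpp signalling, sbb and ush (6 of 11 each), and apt and tara (6 of 7 each). At Raf the shared peaks ran from a signal of 122 to 1079, and 9 of the 11 were in introns. By contrast comm3, cpo, Gdh, mtgo and Sik3 each had 4 optimal peaks and no shared one, the strongest at pooled ranks of 1328, 1572, 1882, 2400 and 2518.

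Joining shared summits less than 10 kb apart gave 1418 runs, of which 975 were lone peaks. The remaining runs held 1103 members (53.1%), and 18 runs of at least 5 held 117. The longest by count was 2L:1611325-1649673 beside chinmo, a BTB zinc-finger gene of neural timing, where 10 of 10 optimal peaks were shared and 7 were intergenic. Their signal ran from 118 to 725.6. Runs with 9 shared peaks lay at Raf (9 of 10 optimal), around aru (9 of 9) and at CHES-1-like (9 of 10). A run of 7 around CG7560 on 3L was wholly intergenic, 7 of 7.

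Genes of the EGF receptor pathway are given beside 64.0% of all genes with an optimal peak that had a shared one, and beside 57.0% of all optimal peaks that were shared. A peak counted for a gene can lie nearer to the TSS of another gene. Of 8 genes for the receptor, its ligands and their processing, 6 had an optimal peak and 5 a shared one, and 8 of their 17 peaks (47.1%) were shared. The ligand gene spi had its strongest peak at ranks 84, 191 and 240. Star (S), needed for Spitz export, ranked 141, 182 and 673. Krn, another ligand gene, ranked 566, 1349 and 863, and vn, the neuregulin-like ligand gene, 1644, 2463 and 708. Egfr itself had 2 optimal peaks, neither shared, since the stronger ranked 2323, 2090 and 3987. The genes grk and rho had no optimal peak.

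Of 6 feedback inhibitors, 4 had an optimal peak and 2 a shared one, and 4 of their 10 peaks were shared. The gene aos, whose product Argos binds and inhibits Spitz, had 4 optimal peaks, and its intron peak ranked 125, 124 and 169, with replicate signals of 219.9, 225.1 and 174.0. The other 3 peaks of aos were not shared. The gene edl, whose product lacks an ETS domain and antagonises Yan, had 3 of 3 peaks shared, the strongest at 459, 267 and 1195. The peak of sty (Sprouty) missed the top list of replicate 1 at 3931, and that of Mkp3, a MAP kinase phosphatase gene, ranked 4648 and 4611 in replicates 1 and 3 and was not listed in replicate 2. Cbl and kek1 had no optimal peak.

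In the Ras-MAP kinase cascade 11 of 15 genes had an optimal peak and 7 a shared one, and 18 of its 24 peaks were shared, 11 of them at Raf. The peak at Shc, an adaptor gene, ranked 9, 17 and 36. The strongest at Raf ranked 35, 33 and 46, and that beside RasGAP1, which turns Ras off, 72, 59 and 85. The strongest at cnk, a scaffold gene, ranked 121, 287 and 313. The peaks counted for ksr, csw, Dsor1 and dos were not shared, with pooled ranks from 2398 to 3551. Sos, rl, sev and tor had no optimal peak.

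Of 8 ETS genes, 3 had an optimal peak and 2 a shared one. The gene aop had 5 of 6 peaks shared, the strongest at 291, 207 and 676. The gene pnt had 1 of 2, an intron peak at 3R:23326414-23326595 ranked 381, 519 and 437, with replicate signals of 134, 111 and 113, while the other ranked 4703, 1951 and 11036. Eip74EF was not shared. All 3 libraries carry the eGFP exon in pnt, and no library without it was compared.

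**Figure D5:**
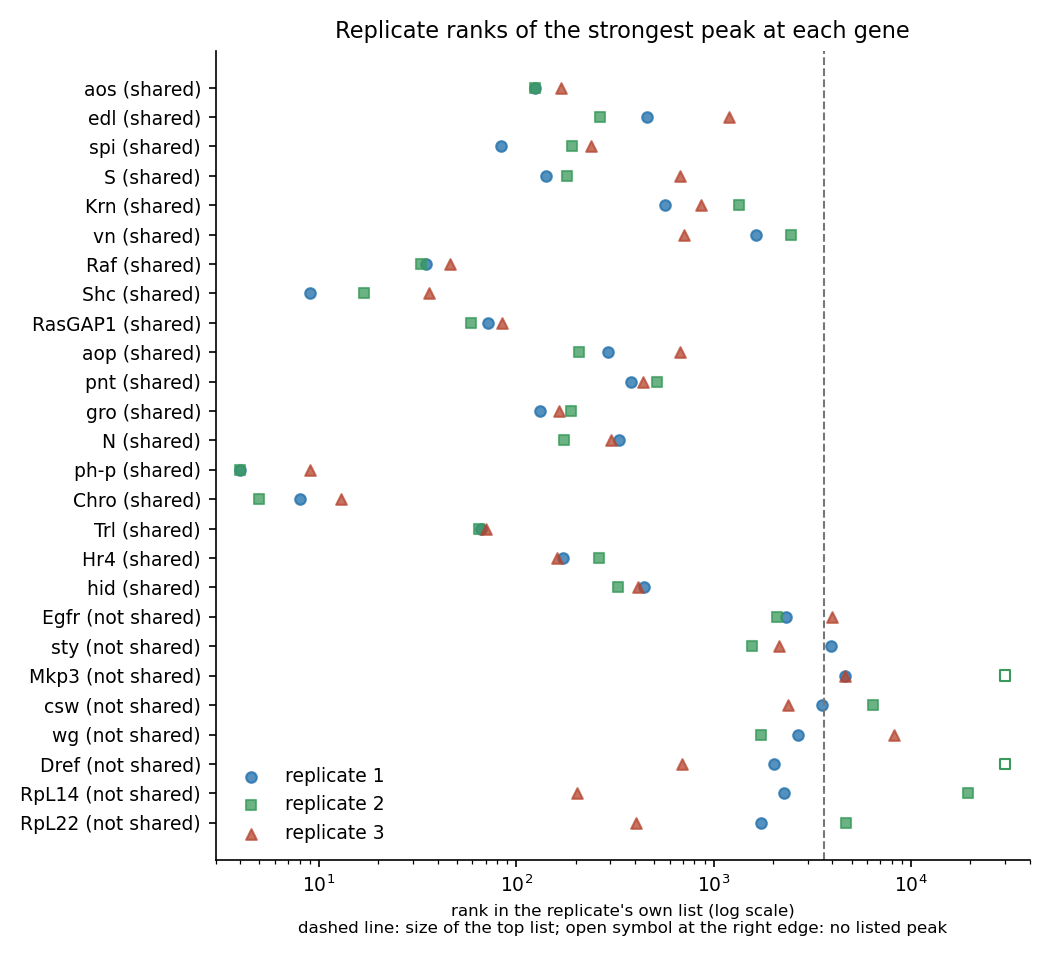
Rank of the strongest optimal peak counted for each of 26 genes in the list of each replicate (x axis, log scale, 1 is the strongest), with a dashed line at the size of the top list and open symbols for no listed peak. Peaks of shared genes lie left of the line in all 3 replicates, and each of the other 8 genes has at least 1 replicate to its right.

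Other signalling lists lay on both sides of that share. In the Notch list 4 of 8 genes with an optimal peak had a shared one: gro, the co-repressor, and the target gene E(spl)m8-HLH count the same peak (132, 189 and 164), N ranked 331, 174 and 303, and neur, a ubiquitin ligase gene, 1418, 779 and 517. In the Wg, Hh and Dpp list 9 of 13 did. These include the Smad genes Mad (94, 128 and 214) and Med, whose peak (40, 89 and 53) lies 5 bp from the TSS of Mnat9 and 5119 bp from that of Med, and the receptor gene fz (161, 66 and 386), whereas wg, smo, Axn and arm had optimal peaks that were not shared. In the Hippo list 6 of 8 did, with ex at 366, 329 and 820 and yki, the co-activator, at 392, 922 and 940.

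Of chromatin genes, 5 of 7 Polycomb-group genes with an optimal peak had a shared one (71.4%, against 64.0% of all such genes). All 5 peaks of ph-p were shared, and the peak counted for Pc, which lies nearest CG11309, ranked 188, 695 and 32. Of insulator and promoter factors 6 of 9 (66.7%) had one, among them Trl, which encodes GAGA factor (66, 65 and 70), mod(mdg4) (192, 107 and 1516) and Cp190 (584, 422 and 1253). Dref (2029 and 693, not listed in replicate 2), CTCF (4215, 1391 and 2283) and BEAF-32 (1972, 1441 and 8861) did not, each for a different replicate.

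All 10 genes of the ecdysone list had an optimal peak (29.4% of all genes did), and 8 a shared one (80.0%, against 64.0%). The list holds 34 optimal peaks, and over all genes 85.6% of those with more than 1 optimal peak had a shared one. Hr3, a nuclear receptor gene, had 3 of 3 peaks shared, with the strongest at 130, 63 and 222, and EcR, the receptor gene, had 2 of 2 (997, 671 and 321). Of cell death genes 4 of 6 (66.7%) had one: the pro-death gene hid ranked 442, 328 and 416, the inhibitor gene Diap1 983, 2713 and 294, and Dark and Drice had weaker ones, which lie nearest the TSSs of RhoGEF2 and Etfb. Of Hox genes 1 of 4 (25%) had one, Antp with 3 of 5 peaks, and Abd-B, pb and lab did not.

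The ribosomal protein and chemosensory receptor genes served as contrasts. Of 91 cytoplasmic ribosomal protein genes 47 had an optimal peak and 24 a shared one (51.1% of the 47, against 64.0%, and 26.4% of the 91, against 18.8%). Over all genes with 1 optimal summit, 55.8% had a shared one. Of the 58 peaks of these ribosomal protein genes 25 were shared (43.1%, against 57.0% of all optimal peaks). RpL32 ranked 119, 162 and 149. The peaks of RpL14 (2265, 19573 and 204), RpL22 (1746, 4676 and 403), RpL41 (1510, 11645 and 457) and RpL17 (1293, 3958 and 739) were high in replicate 3 and outside the top list of replicate 2. Of 179 chemosensory receptor genes 9 had an optimal peak and 6 a shared one (66.7% of the 9, against 64.0%, and 3.35% of the 179, against 18.8%), and those of Or85f, Gr5a and Or88a lay nearest the TSS of a gene outside the list.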

How the data were processed

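Peak lists on dm6 and dm3 in narrowPeak form were used: for each of the 3 replicates a relaxed list of 30000 peaks, and the optimal list. The authors deposited for each peak a signal value on an unstated scale, its significance as −log10 of a q-value, and the offset of its summit, which in 80.9% of the optimal peaks was the midpoint. For the aligner, peak caller and IDR threshold, names and settings were not given in the sources used here. Signal was used to rank peaks within a list, and replicate signals may differ in scale.

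Summits were classed by Ensembl release 115 (FlyBase 6.54) in the order TSS-proximal, coding, 5′ UTR, 3′ UTR, other exon, intron and intergenic. The TSS-proximal class also used TSSs of non-coding genes, whereas nearest genes were found from the TSSs of protein-coding genes only. Unplaced scaffolds were not used. Coordinates are 1-based dm6 positions. Shares were compared by Newcombe intervals, printed at 95%, and a difference was called when the interval at 1 minus 0.05 divided by the number of classes (7), arms (6), patterns (10) or list combinations excluded 0. The calculation was tested on simulated data. Python 3.11.15, numpy 2.4.6, pandas 2.3.3, scipy 1.17.1 and matplotlib 3.10.9 were used.

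The members, the 14 gene lists and the rules were chosen with earlier results of these data known. Named genes are pnt; those nearest the 5 strongest shared peaks in each of 3 classes, the 10 strongest peaks not shared and the 5 peaks on either side of the threshold; the 10 genes with the most shared peaks and the 5 with the most optimal but no shared ones; and up to 4 genes of each kind per list. Ptpmeg2, Vps33B, Sfmbt, the weakest members and the genes named for runs were added after values were seen. Shared peaks were also counted with longer and shorter top lists, a stricter overlap, another ranking column and each replicate left out. The pooled relaxed list, signal tracks and alignments were not analysed here. Some items withheld for evaluation are not reported here.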

Additional observations from a re-analysis of the deposited data

How the results depend on the processing

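Of 303 recomputed values, 267 stayed on the same side of the criterion or, for counts, within 1.5 times the reported count. Called differences among these kept their direction, but differences called in neither setting were included even where their direction changed. The intron difference, for example, went from -3.48 to 4.50 points with top lists of 7292 peaks and was called in neither. With top lists of 1823 peaks 1141 peaks were shared, near 1557 genes, and assigning each peak only to the gene of its nearest TSS gave 1599 genes. Leaving out 1 replicate gave 2169 to 2748 shared peaks and 2724 to 3180 genes. On dm3, 2018 of 3543 peaks (57.0%) were shared. The TSS-proximal difference turned to -4.02 points (-8.08 to 0.0619) with top lists of 7292 peaks. Among the peaks above the median signal it was -4.32 (-12.2 to 3.85), and neither of these passed. Without replicate 3 it turned to -6.92, which passed, and its range with 1 replicate left out was -6.92 to 14.4. It did not pass at 1.78 (-1.35 to 4.88) with a TSS window of 200 bp. Nor did it at 1.35 over the 4 weaker signal bins, added after seeing the data. The intergenic difference turned to 0.0909 (-2.87 to 2.75) with lists of 7292 peaks, which did not pass. It turned to 3.90 without replicate 3, over a range of -6.22 to 3.90 with 1 replicate left out. It no longer passed at -2.68 with an overlap of 50% and at -0.914 among the peaks above the median signal. Nor did it pass at -5.52 averaged over the 5 signal bins or at -1.40 with a TSS window of 200 bp. The X difference no longer passed at 2.46 with lists of 1823 peaks, at 7.59 (0.706 to 14.5) averaged over the 5 signal bins, the strongest of which has 4 other peaks, and at 2.85 without the 5 leading genes, added after seeing the data. It ran from 1.99 to 5.60 with 1 replicate left out. The number of patterns called was 0, but 1 with lists of 7292 peaks, above the median signal, with 50 bp either side of the summit and among TSS-proximal peaks, and 0 to 3 with 1 replicate left out. The causes were not tested. No paired analysis was possible because there is 1 group. The unknown read depth limits what a missing replicate peak means.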
